A study of Homo sapiens with 10 samples.

Results

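The HOX genes were examined as the 4 clusters in which human chromosomes carry them. The members are the peaks of 8 CUT&RUN lists that overlap, by at least 1 bp, the intervals of build hg19 that hold HOXA (chr7:27130000-27260000), HOXB (chr17:46600000-46820000), HOXC (chr12:54320000-54460000) and HOXD (chr2:176940000-177060000). These intervals held 377 of the 543439 peaks of the series, with 123 in HOXA, 142 in HOXB, 101 in HOXC and 11 in HOXD. The intervals were set by position, so no measured value chose the peaks. The BRD9 lists name no build and were read as hg19, like the SMARCB1 lists, and every BRD9 value of a cluster rests on this assumption. The 500 kb on each side of a cluster served as its flanks.

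The cells were G401, an established line of rhabdoid tumour, a childhood cancer that arises when SMARCB1 is lost. Every group carried the genotype SMARCB1(-/-), and every group was induced with dox, a tetracycline antibiotic used to switch on an introduced gene, which was either GFP, an inert fluorescent protein, or SMARCB1. Of the 10 samples, 8 were used: BRD9 in GFP-induced cells (3 lists), BRD9 in SMARCB1-induced cells (3 lists) and SMARCB1 in SMARCB1-induced cells (2 lists). The comparison asks where BRD9 sits on chromatin in cells without SMARCB1 and in cells to which it has been restored. In CUT&RUN an antibody tethers a nuclease to its target protein, and the DNA cut free around it is sequenced. The labels give neither a dose nor a duration of induction, and do not say whether replicates came from separate cultures. All groups are 1 cell line, and peak lists hold no transcript levels, so neither the identity of the line nor HOX expression could be read from them.

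HOX genes encode homeodomain transcription factors that give cells their position along the body axis. Within a cluster they stand in the order in which they are expressed from head to tail, with the low paralogue numbers active in front and the high ones behind. Polycomb complexes keep the clusters silent and trithorax-group proteins, among them the SWI/SNF chromatin remodellers, keep them active. SMARCB1 is a core subunit of 2 forms of SWI/SNF, called BAF and PBAF. BRD9, a bromodomain protein, belongs to the form without SMARCB1, called ncBAF.

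The clusters also hold microRNA genes, some of which silence HOX messenger RNAs. RefSeq on GRCh38.p14, a later build than that of the lists, was used for names only, and no peak was assigned to a gene. It lists 11 HOX genes in HOXA, 10 in HOXB, 9 in HOXC and 9 in HOXD, which makes 39. MIR196B lies in HOXA, MIR10A, MIR196A1 and MIR3185 in HOXB, MIR196A2 and MIR615 in HOXC, and MIR10B and MIR7704 in HOXD. The following mature sequences, from RefSeq, are products of microRNA genes in each of the 4 clusters, shown so that their seeds can be compared, and capitals mark the seed, bases 2 to 8, which pairs with target messages.
hsa-miR-196a-5p: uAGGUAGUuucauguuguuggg
hsa-miR-196b-5p: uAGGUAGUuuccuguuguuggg
hsa-miR-10a-5p: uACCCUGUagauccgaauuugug
hsa-miR-615-3p: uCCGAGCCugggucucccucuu
hsa-miR-10b-3p: aCAGAUUCgauucuaggggaau
The microRNA from HOXB and HOXC (miR-196a) and the one from HOXA (miR-196b) share the seed AGGUAGU, and the seeds of the other sequences printed differ from it and from each other. Over their 22 bases the miR-196 sequences differ by 1 substitution, A12C from miR-196a to miR-196b, counted from the 5′ end. MIR10A is shown by its 5p arm and MIR10B by its 3p arm, since the entries used held no 5p arm of MIR10B. The printed seeds of MIR10A and MIR10B thus do not show whether like arms of these genes share a seed. No peak value is attached to these genes, for the reason given above.

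CG, the dinucleotide that marks CpG islands, was counted in promoters of the clusters. In the 250 bases upstream of a start, CG (the same letters on both strands) was sought in 27 promoters of the 20 HOX genes, of 39, that the RefSeq table holds, and 7 of the 27 belong to HOXA3. Their median was 19, against 11 over 35116 promoters of all genes, and 77.8% of the HOX promoters held 10 or more, against 52.2% of all. The 8 HOXD promoters had a median of 22 and the 16 HOXA promoters one of 19, while the 2 HOXC promoters held 14 each and the single HOXB promoter held 7. The HOXC promoters, of HOXC4 and HOXC5, also had the same share of G and C, 50.8%. Whether they are 1 sequence counted for both genes was not examined. No test was made. The promoters of HOXA13 and HOXD13 are printed in the direction of transcription with CG in capitals, since these paralogues pattern the most posterior structures.
HOXA13: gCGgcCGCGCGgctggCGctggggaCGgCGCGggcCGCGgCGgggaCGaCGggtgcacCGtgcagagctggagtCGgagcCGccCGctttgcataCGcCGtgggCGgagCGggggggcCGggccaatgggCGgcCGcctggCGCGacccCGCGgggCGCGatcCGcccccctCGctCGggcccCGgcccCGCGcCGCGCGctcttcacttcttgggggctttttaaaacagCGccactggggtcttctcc
HOXD13: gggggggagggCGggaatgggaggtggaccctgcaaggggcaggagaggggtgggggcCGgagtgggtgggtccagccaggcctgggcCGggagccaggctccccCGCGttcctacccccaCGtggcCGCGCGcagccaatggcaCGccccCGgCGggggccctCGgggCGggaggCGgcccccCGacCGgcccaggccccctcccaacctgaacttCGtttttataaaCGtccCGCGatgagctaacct
The HOXA13 promoter holds 40 CG, a number that 2.16% of all promoters reach, and the HOXD13 promoter holds 21, which 30.2% reach. HOXA13 has the highest count of the 27 HOX promoters. The pair does not stand for its clusters, whose medians were 19 in HOXA and 22 in HOXD. These letters describe the sequence and were not set against peaks, whose build differs.

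After induction, SMARCB1 lay over about 50% or more of 3 of the 4 clusters and was almost absent from HOXD. In HOXA the peaks of the replicates covered 55.6% and 63.7% of the cluster (59.7% ± 5.69, SD, n = 2). In HOXB they covered 48.8% and 56.4% (52.6% ± 5.34), and in HOXC 69.3% and 76.0% (72.6% ± 4.68). HOXD had 1.77% and 2.19% (1.98% ± 0.295). Both replicates thus put HOXC first, HOXA next, then HOXB, and HOXD last. The lower value of HOXA is below the higher one of HOXB, so that these neighbours are not apart beyond the spread between lists.

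The flanks were less covered than the cluster at HOXA, HOXB and HOXC, with 17.4% ± 3.28, 38.4% ± 5.06 and 19.1% ± 4.37. At HOXD the flanks, with 2.29% ± 0.705, were as bare as the cluster. Over the whole genome SMARCB1 peaks covered 5.67% ± 1.09. Among 30338 windows of 100 kb, of which 34.1% had no SMARCB1 peak and the median was covered to 0.788%, 0.491% reached the cover of HOXC. The share was 1.01% for HOXA, 1.45% for HOXB and 39.5% for HOXD. No SMARCB1 list of GFP-induced cells was analysed here, so these values have no comparison without SMARCB1 other than the control library behind each list.

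**Figure D1:**
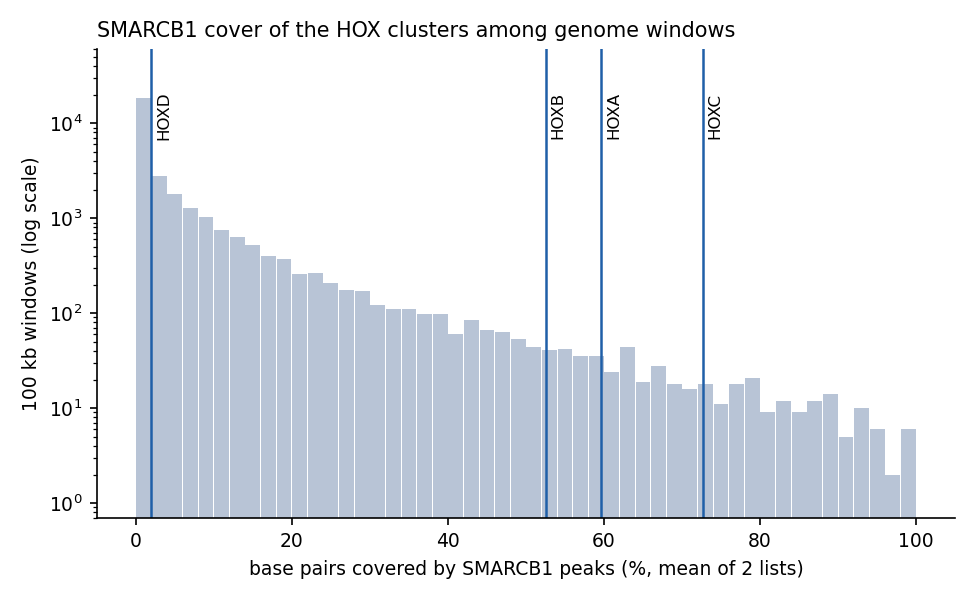
Histogram of 100 kb windows of chromosomes 1 to 22 and X by the percent of their base pairs covered by SMARCB1 peaks (mean of 2 lists); the vertical axis is the number of windows on a log scale. Lines mark the clusters at 1.98% (HOXD), 52.6% (HOXB), 59.7% (HOXA) and 72.6% (HOXC), the last 3 lying in the sparse right tail.

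The median peak of HOXA, HOXB and HOXC was also denser than the median peak of its list, though by little in HOXB. The read density of the SMARCB1 peaks, in RPKM (reads per kb of peak and per M reads of the library), was 2.21 ± 0.150 in HOXA, 1.88 ± 0.176 in HOXB, 1.94 ± 0.162 in HOXC and 1.38 ± 0.0494 in HOXD. These values pool the reads of all peaks of a cluster, which gives wide peaks more weight. The median of all SMARCB1 peaks was 1.42 and 1.40 in the lists. The median peak had 1.82 and 1.93 in HOXA, 1.44 and 1.53 in HOXB, 1.68 and 1.81 in HOXC and 1.40 and 1.36 in HOXD. The control library, from GFP-induced cells, had 0.776, 0.518, 0.560 and 0.596 RPKM in the same peaks, so that SMARCB1 stood 2.84-fold, 3.65-fold, 3.46-fold and 2.32-fold above it. HOXA had both the highest SMARCB1 density and the highest control density. Pooled density in the flanks of HOXB, 1.89 and 2.08 RPKM in the lists, was above the 1.76 and 2.01 of the cluster. The flanks of HOXD were also denser than their cluster, and those of HOXA and HOXC less dense, in both lists.

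Peaks of the replicates were joined into regions, and 57 regions of the clusters held a peak of both (16 in HOXA, 26 in HOXB, 13 in HOXC and 2 in HOXD). Their median width was 2500 bp, against 1225 bp over all 87641 such regions. Of the 57, 9 (15.8%) were at least 10 kb wide, against 1.76% of all. The replicates placed SMARCB1 on the same bases in HOXC (Jaccard index, the bases shared by a pair of lists over the bases in either, 0.870), HOXB (0.826) and HOXA (0.822). In HOXD the index was 0.25, which is 1 base in 4 shared.

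The widest region of HOXA, chr7:27198226-27220294, spanned 22068 bp at 2.29 ± 0.255 RPKM (SD, n = 2). The next was chr7:27134451-27147451, with 13000 bp and 2.46 ± 0.156 RPKM, and then chr7:27169146-27178026, with 8880 bp and 1.94 ± 0.137 RPKM. The densest was chr7:27157848-27162301, at 2.75 and 3.01 RPKM (2.88 ± 0.187) over a control of 0.712. SMARCB1 was thus found from the lower-coordinate end of the cluster into its upper part, and the longest stretch free of it was chr7:27226809-27235651, of 8842 bp.

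In HOXB the widest regions were chr17:46660576-46682001 (21425 bp, 1.95 ± 0.155 RPKM), chr17:46609951-46627751 (17800 bp, 2.15 ± 0.243 RPKM) and chr17:46799526-46814776 (15250 bp, 2.01 ± 0.232 RPKM). The densest, chr17:46646626-46658951, had 2.39 ± 0.453 RPKM over 12325 bp. HOXB was covered in 2 blocks, with the longest free stretches of 18975 bp (chr17:46727676-46746651) and 13150 bp (chr17:46775101-46788251) between them. The lists cannot tell whether these lie in the long gap that separates HOXB13 from the other HOXB genes, since no gene positions of their build were used here.

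HOXC held the widest region of any cluster, chr12:54365276-54394676, with 29400 bp at 1.96 ± 0.211 RPKM. The next, chr12:54402526-54428376, spanned 25850 bp at 2.29 ± 0.213 RPKM, and the next, chr12:54328801-54338101, 9300 bp at 1.66 ± 0.153 RPKM. The densest, chr12:54345876-54347611, had 2.37 ± 0.178 RPKM over 1735 bp and held no BRD9 peak in any list. The longest free stretch of HOXC, 8801 bp, lay at its lower bound, and the next, chr12:54348326-54356301, of 7975 bp, lay inside the cluster.

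HOXD had 2 regions in both replicates, chr2:177005051-177005901 (850 bp, 1.42 ± 0.302 RPKM) and chr2:176961076-176961576 (500 bp, 1.25 ± 0.00842 RPKM). A stretch of 51150 bp, 42.6% of the cluster, held no SMARCB1 peak. The lowest RPKM of any peak in the SMARCB1 lists was 0.954 and 0.958, so a weaker signal would not be listed.

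**Figure D2:**
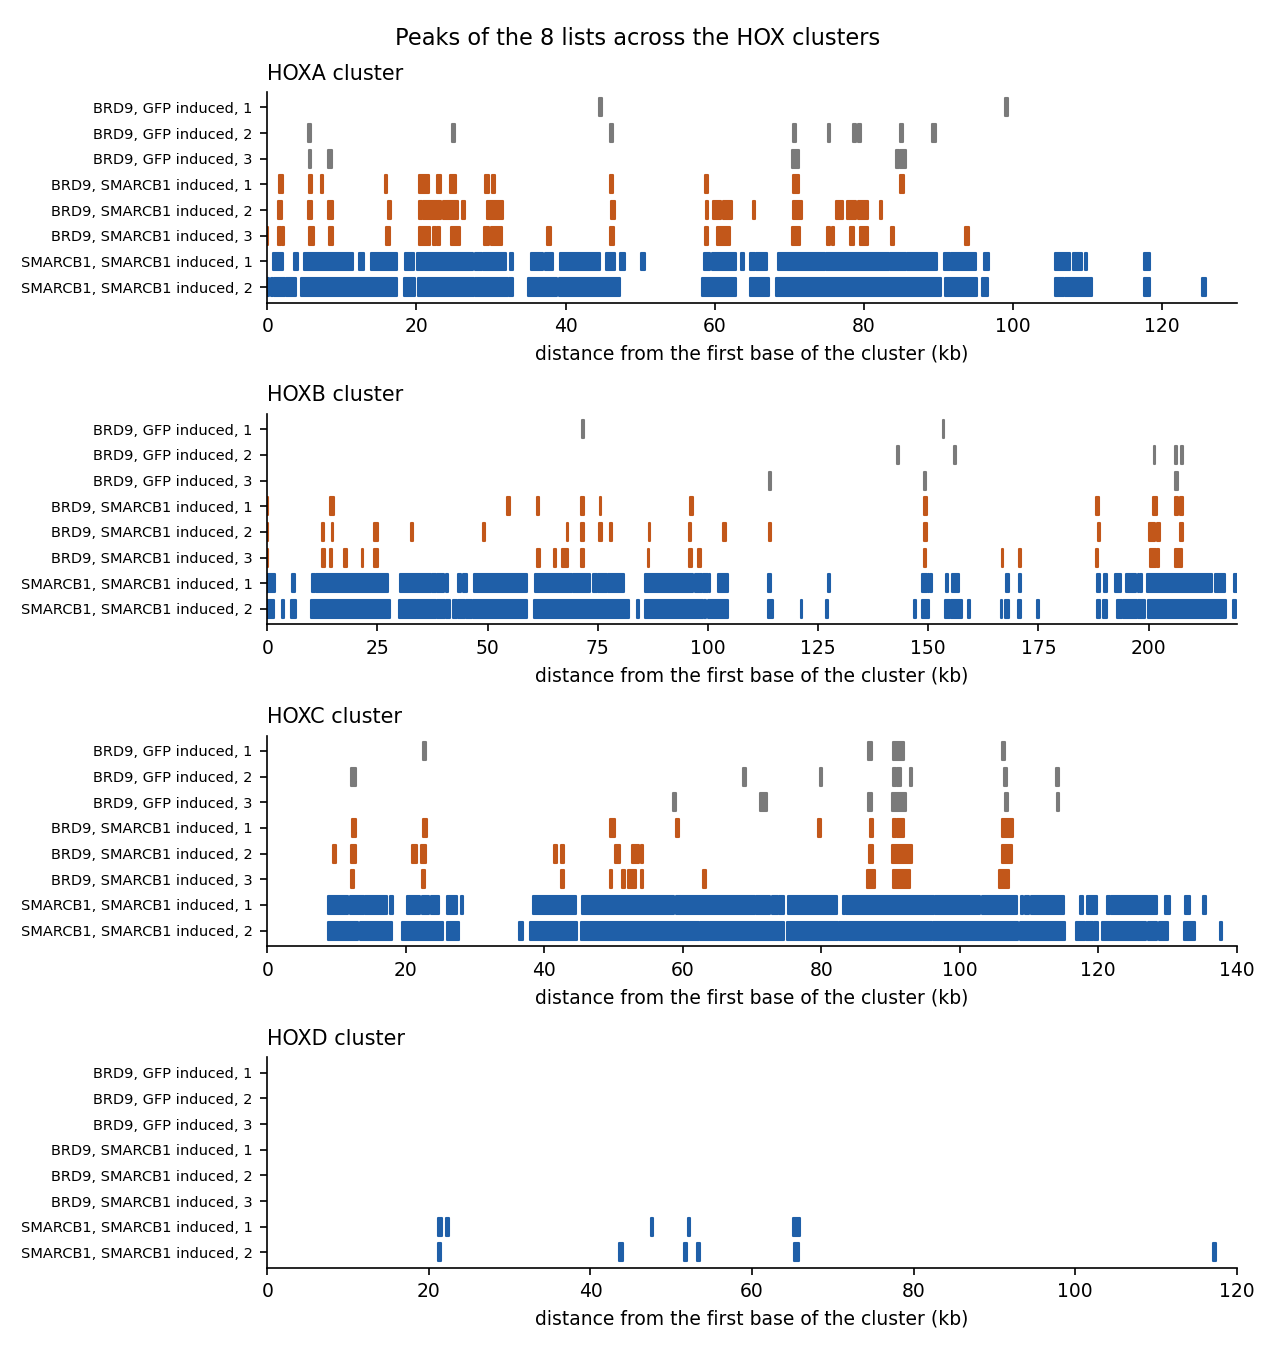
Position of every peak of the 8 lists along each cluster, in kb from the first base of the cluster; rows are lists (grey, BRD9 in GFP-induced cells; orange, BRD9 in SMARCB1-induced cells; blue, SMARCB1). SMARCB1 forms long blocks in HOXA, HOXB and HOXC, BRD9 peaks are more frequent in the orange rows than in the grey ones, and HOXD has no BRD9 peak and 11 SMARCB1 peaks.

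BRD9 covered more of HOXA, HOXB and HOXC in SMARCB1-induced than in GFP-induced cells, and no part of HOXD in either. In the GFP-induced lists BRD9 peaks numbered 8, 22 and 14 over the 4 clusters, and in the SMARCB1-induced lists 34, 50 and 54. As a share of the peaks of each list, these were 0.0175%, 0.0624% and 0.0361% against 0.0732%, 0.125% and 0.128%. The groups did not overlap. BRD9 cover of the whole genome was 0.918% ± 0.210 and 1.04% ± 0.117 (SD, n = 3 lists each), a ratio of 1.14. Libraries held 10.2 to 12.1 M reads in the first group and 10.1 to 13.9 M in the second, and a median BRD9 peak held 18 to 23 reads. In each group the list with the most peaks over the genome (replicate 1, with 45673 and 46448) had the fewest in the HOX clusters.

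In HOXA, BRD9 peaks of GFP-induced cells covered 0.533%, 2.68% and 2.29% of the cluster (1.84% ± 1.15), with 26, 176 and 123 reads in them. In SMARCB1-induced cells they covered 6.01%, 13.9% and 12.1% (10.7% ± 4.14), with 417, 660 and 794 reads. Every SMARCB1-induced list lay above every GFP-induced list. The difference of 8.83 percentage points was a 5.81-fold one, and the two-sided exact permutation test of 3 lists against 3 gave p = 0.1, the smallest it can give (adjusted p = 0.157 by the Benjamini-Hochberg method over 11 such tests on the clusters).

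In HOXB the GFP-induced lists had 0.267%, 0.848% and 0.630% (0.582% ± 0.293) and the SMARCB1-induced lists 3.15%, 4.91% and 5.67% (4.58% ± 1.29). The groups did not overlap, and the difference was 3.99 points, or 7.86-fold (exact permutation p = 0.1, adjusted p = 0.157). In GFP-induced cells HOXB had the lowest mean of the 3 clusters, and in each of the 3 lists it lay below HOXA and HOXC.

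In HOXC the GFP-induced lists had 2.02%, 2.54% and 3.44% (2.67% ± 0.716) and the SMARCB1-induced lists 4.32%, 7.44% and 6.52% (6.09% ± 1.61). Again the groups did not overlap, by 3.43 points or 2.28-fold (exact permutation p = 0.1, adjusted p = 0.157). HOXC, the cluster most covered by SMARCB1, had the smallest difference of the 3 in both points and ratio, which was not tested between clusters.

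HOXD had 0 BRD9 peaks in each of the 6 lists, and the exact permutation test gave p = 1. The lowest RPKM of any BRD9 peak in these lists was 1.94 to 2.24, and BRD9 below that level would not have been listed. Its flanks, 1 Mb in all, held 1 BRD9 peak in GFP replicate 1, none in the other 2 GFP-induced lists and 1 in each SMARCB1-induced list.

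**Figure D3:**
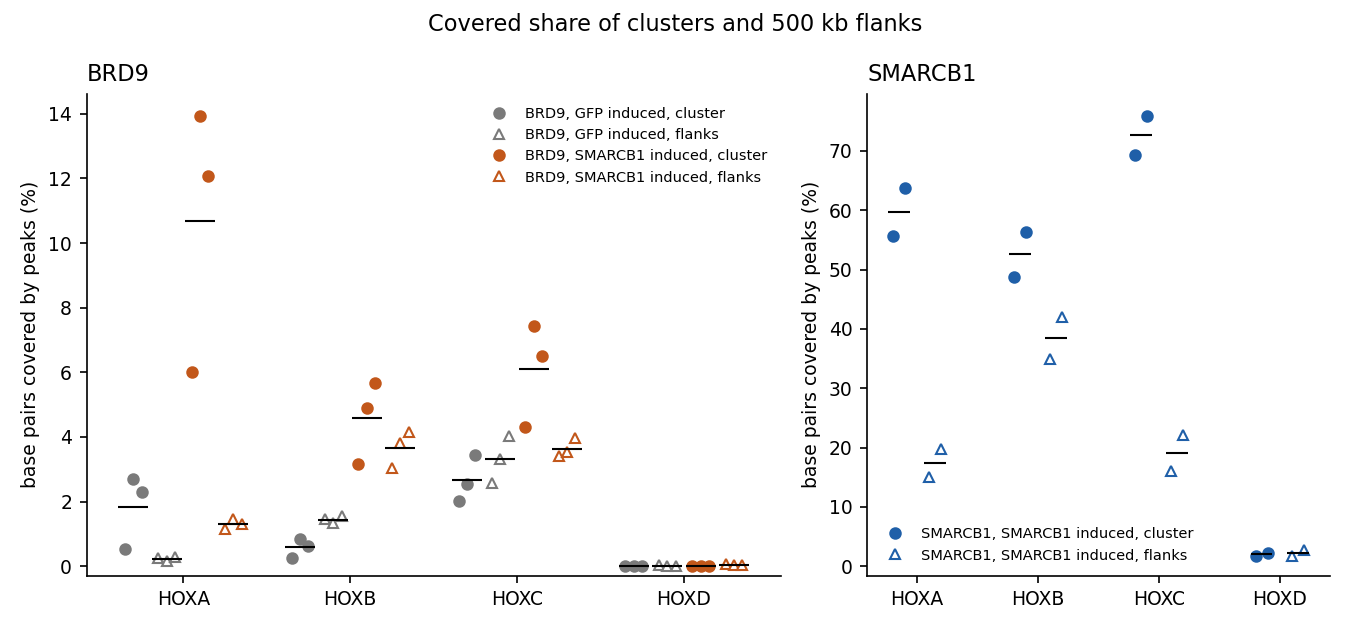
Percent of base pairs covered by peaks in each cluster (filled circles) and in its 500 kb flanks (open triangles); each point is 1 list and bars are group means, for BRD9 on the left and SMARCB1 on the right, on different vertical scales. For BRD9 the orange circles lie above the grey ones in HOXA, HOXB and HOXC, and all HOXD points are at or near 0.

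The flanks behaved differently from cluster to cluster. Around HOXA, BRD9 covered 0.238% ± 0.0675 in GFP-induced and 1.31% ± 0.160 in SMARCB1-induced cells, a 5.49-fold difference close to that in the cluster (exact permutation p = 0.1). Around HOXB the values were 1.44% ± 0.107 and 3.67% ± 0.569 (p = 0.1 by the same exact test), with most of the difference on the lower-coordinate side, 0.974% against 4.78%. Around HOXC they were 3.31% ± 0.717 and 3.64% ± 0.281 and overlapped (exact permutation p = 0.5), and around HOXD 0.0109% and 0.0414% (exact permutation p = 0.2).

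Cover of the cluster minus that of its flanks, taken in each list, was 7.76 points higher in SMARCB1-induced cells at HOXA, 1.76 at HOXB and 3.10 at HOXC. Each gave an exact permutation p = 0.1 and an adjusted p = 0.157. At HOXB and HOXC the sign of this measure turned, from -0.862 to 0.902 and from -0.644 to 2.45 points. In GFP-induced cells BRD9 thus covered a larger mean share of the flanks, both sides pooled, than of these clusters. In SMARCB1-induced cells it covered a larger share of the clusters. Single sides could differ: the lower flank of HOXB had 4.78% in SMARCB1-induced cells, above the 4.58% of the cluster. The lower flank of HOXC had 1.36% in GFP-induced cells, below the 2.67% of the cluster, with 5.26% in its upper flank. The remaining sides followed the pooled order. At HOXD cover of the cluster minus that of its flanks was 0.0305 points lower in SMARCB1-induced cells (exact permutation p = 0.2, adjusted p = 0.275).

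More of HOXA, HOXB and HOXC was covered, while a higher read density in the peaks was not seen in them. BRD9 density in HOXA was 3.53, 4.16 and 4.04 RPKM (3.91 ± 0.336) in GFP-induced and 4.39, 3.59 and 3.57 RPKM (3.85 ± 0.469) in SMARCB1-induced cells, and the groups overlapped (exact permutation p = 1). HOXB had 3.62 ± 0.105 and 3.44 ± 0.350 RPKM, also with overlap (exact permutation p = 0.7, adjusted p = 0.856). In HOXC density was lower in SMARCB1-induced cells, with 4.53, 5.31 and 4.23 RPKM (4.69 ± 0.559) against 4.19, 3.79 and 3.58 RPKM (3.85 ± 0.308). There every SMARCB1-induced list lay below every GFP-induced one (exact permutation p = 0.1, adjusted p = 0.157). The direction at HOXA and HOXB turned when a single list was left out, and a difference in either direction is not shown.

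The control library, the same for all 6 BRD9 lists, had 1.31 and 1.30 RPKM in the HOXA peaks of the groups, 1.31 and 1.09 in HOXB and 1.43 and 1.36 in HOXC. BRD9 stood 3.00-fold and 2.96-fold above it in HOXA, 2.86-fold and 3.15-fold in HOXB, and 3.26-fold and 2.84-fold in HOXC. Height over the control was thus close to 3-fold in the listed peaks of both groups and all 3 clusters. Only peaks that were called enter this ratio, so it does not measure BRD9 over a whole cluster. Reads are deposited for a list's own peaks alone, so density over common bases could not be compared.

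**Figure D4:**
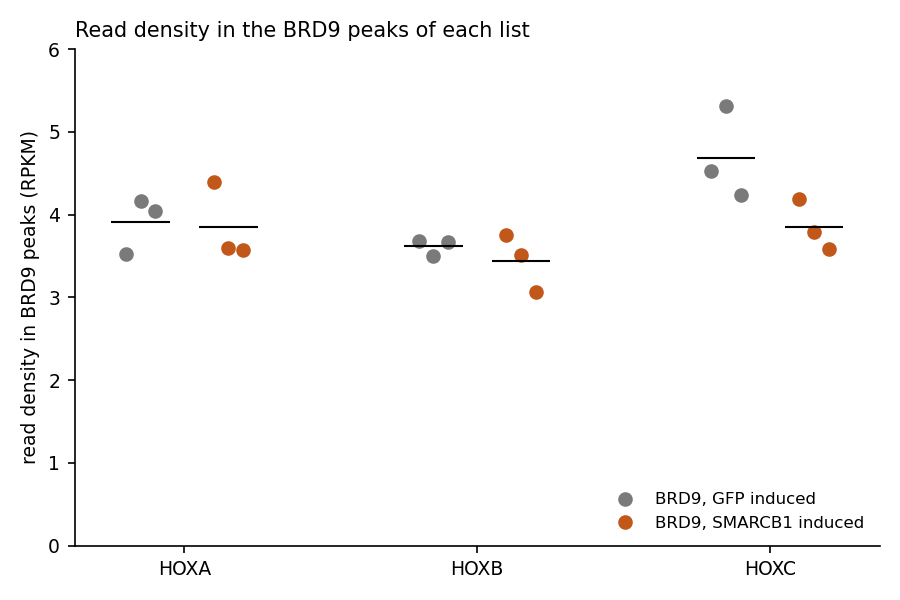
Read density of the BRD9 peaks in each cluster, in RPKM, from 0; each point is 1 list and bars are group means. The groups overlap in HOXA and HOXB, and in HOXC the SMARCB1-induced lists (orange, 3.58 to 4.19) lie below the GFP-induced lists (grey, 4.23 to 5.31); HOXD has no BRD9 peak and is not drawn.

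Joining the peaks of the 6 BRD9 lists gave 80 regions in the clusters (29 in HOXA, 30 in HOXB, 21 in HOXC, none in HOXD). Gained regions are those with a peak in all 3 SMARCB1-induced lists and in no GFP-induced list, and lost regions those with the reverse pattern. Of the 80, 9 were gained (5 in HOXA, 4 in HOXB and 0 in HOXC), which is 11.25% against 6.85% of the 119939 regions of the genome. None was lost, against 1.04% of all regions. At this size the gained share is near the background. Regions called only in SMARCB1-induced lists, in 1 or more of them, numbered 49 (61.3%, against 38.4% of all regions), and those called only in GFP-induced lists 11 (13.8%, against 42.8%).

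Single calls were common: 38 of the 80 regions (47.5%) rested on 1 list, against 62.9% of all regions. In the clusters the SMARCB1-induced lists shared more of their covered bases with each other (Jaccard index 0.285 to 0.416) than the GFP-induced lists did (0.0974 to 0.197). Without replicate 1 of the SMARCB1-induced cells, 17 regions counted as gained, and 21 did so when 2 of the 3 lists were enough. With the higher-scoring part of each list or with equal numbers of top peaks the count was 4.

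The gained region of highest density, chr7:27150301-27153345, spanned 3044 bp in the lower part of HOXA. It had 5.74, 4.02 and 4.48 RPKM in the SMARCB1-induced lists (4.75 ± 0.890, SD, n = 3), with 1.47 RPKM in the control, and no peak in any GFP-induced list. Next came chr7:27159092-27161583, with 2491 bp at 3.69 ± 0.206 RPKM, which lies inside the densest SMARCB1 region of HOXA. The other gained regions of HOXA were narrower: chr7:27131376-27132207 at 3.38 ± 0.457, chr7:27145719-27146526 at 3.30 ± 0.227 and chr7:27188665-27189126 at 3.01 ± 0.121 RPKM.

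The 4 gained regions of HOXB had 853 to 1043 bp each. They were chr17:46599098-46600141 at 3.48 ± 0.301 RPKM, which crosses the lower bound of the cluster, chr17:46614226-46615103 at 3.41 ± 0.201, chr17:46695712-46696565 at 3.19 ± 0.168 and chr17:46788051-46788934 at 2.96 ± 0.228 RPKM. All 9 gained regions overlapped, by at least 1 bp, a SMARCB1 region called in both replicates, as did 75 of the 80 BRD9 regions. Such SMARCB1 regions made up 64.0% of HOXA, 55.2% of HOXB and 76.5% of HOXC. The share over all BRD9 regions of the genome is not given here, so the count has no background.

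In HOXC the best-supported BRD9 regions were called in GFP-induced cells too. Both regions of the clusters that were called in all 6 lists (2 of 80, 2.5%, against 4.67% of all regions) lay in HOXC, within the SMARCB1 region of 25850 bp. In chr12:54410250-54413088 (2838 bp) BRD9 had 4.59, 5.88 and 4.79 RPKM in GFP-induced cells (5.09 ± 0.694) and 4.41, 4.07 and 3.44 RPKM in SMARCB1-induced cells (3.97 ± 0.491), so that the latter lay lower without overlap. In chr12:54425676-54427631 (1955 bp) the values were 4.06, 5.04 and 4.07 (4.39 ± 0.563) against 4.96, 4.53 and 4.51 RPKM (4.67 ± 0.256), and they overlapped. Each list measured its own peak within these regions, so the values are not over identical bases.

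In HOXA and HOXB no BRD9 region was called in all 3 GFP-induced lists, whereas 9 and 8 regions were called in all 3 SMARCB1-induced lists. Over the clusters a peak in all 3 SMARCB1-induced lists was found in 22 of the 80 regions (27.5%, against 14.2% of all regions), and one in all 3 GFP-induced lists in 2 (2.5%, against 7.89%). In HOXC the counts were 2 and 5, and all 5 also had a peak in at least 1 GFP-induced list. One region outside the naming rule was picked after its values were seen. It is chr7:27200320-27201656 in HOXA, with 5.88, 5.40 and 5.30 RPKM in SMARCB1-induced cells (5.53 ± 0.312) and 4.51 and 4.72 RPKM in the 2 GFP-induced lists that called it.

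Cover was also compared in fixed windows of 10 kb, which do not depend on where peaks begin. Of the 61 windows of the clusters, 39 held a BRD9 peak in some list. In 18 of these (46.2%) every SMARCB1-induced list covered more than every GFP-induced list, against 13.9% of the 66856 such windows of the genome. In none was every SMARCB1-induced list lower, against 4.46%. The 18 were 6 of 10 windows in HOXA, 8 of 18 in HOXB and 4 of 11 in HOXC. Windows of 100 kb lay on a fixed grid, so those that overlap a cluster also hold parts of its flanks. Of these, 7 held a BRD9 peak. The SMARCB1-induced lists were higher in 6 of the 7 (24.7% of 17939 genome windows) and lower in none (7.15%). Neighbouring windows can share a peak, and are not independent.

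HOXA was not uniform. Bounds drawn after the values were seen split it in 3. In the first 60 kb (chr7:27130000-27190000), BRD9 covered 0.585%, 2.00% and 1.49% in GFP-induced and 10.6%, 17.8% and 15.9% in SMARCB1-induced cells, and all 6 windows were higher. In the next 40 kb (chr7:27190000-27230000) the lists had 0.855%, 5.73% and 5.21% against 3.58%, 18.6% and 15.3%, and overlapped. In the last 30 kb no list had a BRD9 peak, and SMARCB1 covered 17.3% ± 4.35. The window of HOXA with most BRD9 in SMARCB1-induced cells was chr7:27150000-27160000, with 0%, 4.19% and 0% in GFP-induced and 34.2%, 58.5% and 40.2% in SMARCB1-induced cells. In GFP-induced cells chr7:27200000-27210000 had more, with 0%, 13.9% and 9.12%.

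BRD9 lay where SMARCB1 lay. In SMARCB1-induced cells 99.8% ± 0.284 of the BRD9-covered bases of HOXA fell in SMARCB1 regions, 97.9% ± 1.80 of those of HOXB and 100% of those of HOXC. In GFP-induced cells, which lack SMARCB1, the shares of BRD9 in those same regions were 83.5% ± 28.5, 79.3% ± 21.7 and 100%. The low values rested on lists with few peaks, since GFP replicate 1 had 2 peaks in HOXA, with a share of 50.6%, and 2 in HOXB, with 56.8%. These regions, called in both replicates, made up 64.0% of HOXA, 55.2% of HOXB and 76.5% of HOXC, which is the share that bases spread evenly over a cluster would give.

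Windows were also grouped by SMARCB1 cover. In the 18 windows with under 10% SMARCB1 cover, of which 12 were those of HOXD, BRD9 covered 0.0694% and 0.188% (GFP-induced and SMARCB1-induced). In the 11 windows with 10 to 50% it covered 0.399% and 1.91%, and in the 16 windows with 50 to 90% 0.876% ± 0.259 and 5.08% ± 2.13. In the 16 windows with 90% or more it covered 3.40% ± 1.47 and 13.7% ± 3.80. BRD9 cover thus followed the order of SMARCB1 cover in both groups, also in GFP-induced cells. All 3 SMARCB1-induced lists had a BRD9 peak in 0, 4, 6 and 13 of the windows of the classes, and all 3 GFP-induced lists in 0, 0, 0 and 3. The last 3 were all in HOXC. Windows of the rest of the genome were not grouped in this way. Whether the order is particular to the HOX clusters was therefore not tested.

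BRD9 nevertheless covered a small part of what SMARCB1 covered. Over all SMARCB1 regions of the HOX clusters it covered 1.11%, 2.71% and 2.90% in GFP-induced (2.24% ± 0.984) and 6.60%, 12.7% and 11.7% in SMARCB1-induced cells (10.4% ± 3.29), a ratio of 4.62. In the 1533 other SMARCB1 regions of at least 10 kb the shares were 11.6% ± 1.72 and 21.1% ± 1.46, a ratio of 1.82. In all other SMARCB1 regions they were 5.28% ± 0.710 and 12.4% ± 0.473, a ratio of 2.35. The HOX share was below that of the other wide regions in 6 of 6 lists, by 10.04 points on average (SD 1.92). Of the 57 HOX regions, however, 48 were narrower than 10 kb. The 9 wider ones alone were covered to 3.29% ± 1.57 and 11.5% ± 3.56, also below the other wide regions in 6 of 6 lists. Against all other SMARCB1 regions the HOX share was lower in 5 of 6 lists, with SMARCB1-induced replicate 2 at 12.7% against 11.9% as the exception. The log2 ratio of the share of all HOX regions to that of the other wide regions was -2.48 ± 0.669 in GFP-induced and -1.08 ± 0.444 in SMARCB1-induced cells. These comparisons were chosen after the values were seen and are given without a test.

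**Figure D5:**
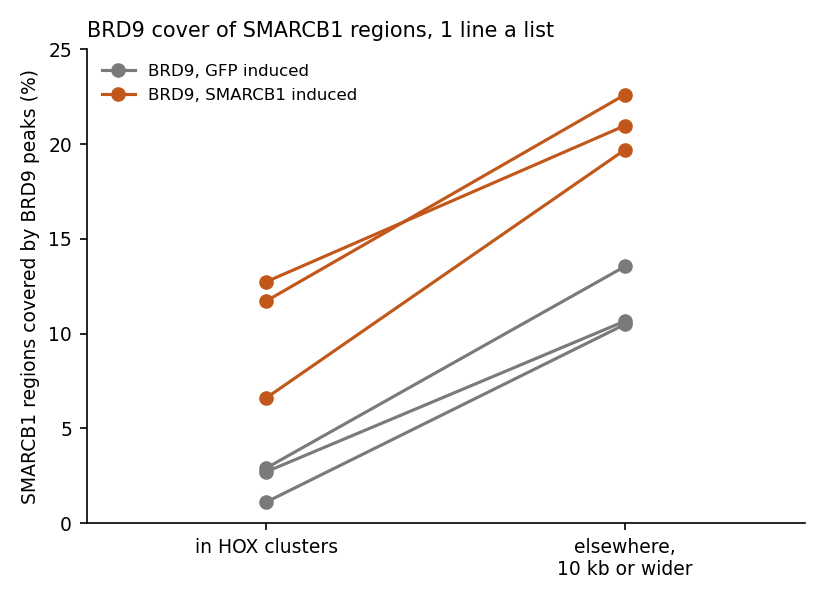
Percent of the base pairs of SMARCB1 regions covered by BRD9 peaks, in the HOX clusters (regions of all widths) and in other SMARCB1 regions of 10 kb or wider; each line joins the values of 1 BRD9 list. All 6 lines lie lower at the HOX end, the GFP-induced lists (grey) at 1.11 to 2.90% and the SMARCB1-induced lists (orange) at 6.60 to 12.7%.

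Of the 57 SMARCB1 regions of the clusters, 18 held a BRD9 peak in all 3 SMARCB1-induced lists (7 in HOXA, 7 in HOXB and 4 in HOXC). This is 31.6%, against 13.5% of the 87641 regions. In HOXC, 1 region held one in all 3 GFP-induced lists, which is 1.75% of the 57 against 4.55% of all. Any overlap counted, and the HOX regions were wider, with a median of 2500 bp against 1225 bp. Neither comparison was matched for width. Against windows of 100 kb, the BRD9 difference of HOXA was reached by 0.574% of windows, that of HOXB by 2.58% and that of HOXC by 3.25%, where 40.9% of windows have no BRD9 peak at all. The p-values above compare 3 lists with 3 and measure the spread between these lists only.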

How the data were processed

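CUT&RUN peak lists, 1 per sample, were used as deposited. Each gives per peak the read counts of its sample and its control library, deposited by the authors, and the same values as RPKM, per the file headers. Peaks carry a score deposited by the authors, −log10 of a false discovery rate, with a lowest value of 3.98 to 4.00. The SMARCB1 lists name GFP-induced cells as control and hg19 as build, and the BRD9 lists name neither; their positions were read as hg19, which was assumed. The submitters' processing notes name hg19, GRCh37, ASM584v2, BWA 0.7.12-r1039, SAMtools, bedtools, DiffBind and edgeR without a role; the peak caller is not given in the sources used here. The control held 23.1 M reads for all BRD9 lists and 49.6 M for the SMARCB1 lists, and the SMARCB1 libraries 64.2 and 59.7 M, so cover of the 2 proteins is not compared in level. Positions are as deposited, and length is end minus start.

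Cover is the share of base pairs under peaks. Density is the reads in peaks per kb and per M reads of the library. Groups and replicate numbers come from the sample titles. The BRD9 groups, 3 lists each, were tested by exact permutation (two-sided), with 0.1 as the smallest p. Regions named are every gained, lost and all-list BRD9 region of a cluster, the 3 widest SMARCB1 regions and the densest. The clusters, lists and rules were chosen with earlier results of these data known. Same-numbered lists of the BRD9 groups correlated at 0.0105, 0.00692 and 0.00162 in their deviations, which cannot exclude that a number pairs them. In both groups replicate 1 had the most peaks over the genome and the least cover of HOXA, HOXB and HOXC. The labels name no pairing, so the main test used none, and a replicate block was run as an alternative. Alternatives were the upper 50% of each list by score, equal numbers of top peaks, stricter overlap, wider bounds, merging, median density, other flanks, leaving out each list, and a replicate block. Gene positions of hg19 were not used here, so the planned gene lists were left out. The code was tested on simulated lists. Python 3.11.15, numpy 2.4.6, pandas 2.3.3 and matplotlib 3.10.9 were used.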

Additional observations from a re-analysis of the deposited data

How the results depend on the processing

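Of 165 alternative values, 150 kept the direction (or, without a test, the size), 9 moved and 6 changed sign. The 150 include 12 for BRD9 cover of HOXD, all 0. They also include other values that could not change. A replicate block leaves a difference of means as it is. Leaving out 1 SMARCB1 list always moves mean SMARCB1 cover by less than the SD, the limit used. No exact test could pass 0.05, so the side of that threshold could not change. BRD9 cover stayed higher after SMARCB1 induction under every alternative run, by 5.20 to 11.2 points in HOXA, 2.17 to 4.71 in HOXB and 1.93 to 4.31 in HOXC. Leaving out 1 list gave 7.20 to 11.2, 3.45 to 4.71 and 2.75 to 4.31 points. With equal numbers of top peaks the HOXC groups overlapped (exact permutation p = 0.2). The excess over the flanks ranged from 4.44 to 10.01 points in HOXA, 0.687 to 2.81 in HOXB and 1.78 to 3.87 in HOXC. With the upper 50% by score the HOXB excess was 0.687 points and the groups overlapped (exact permutation p = 0.2).

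The sign of the density difference was not stable at HOXA and HOXB. At HOXA it was -0.06 RPKM, 0.12 with equal numbers of top peaks, and -0.33 to 0.082 with 1 list left out, positive without GFP replicate 2 or 3 or SMARCB1-induced replicate 2 or 3. At HOXB it was -0.17, and -0.33 to 0.016 with 1 list left out, positive without SMARCB1-induced replicate 3. The cause was not tested. At HOXC it stayed between -1.07 and -0.53. HOXD has no BRD9 peak and gave no density, and the upper 50% by score gave none for HOXA and HOXB.

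The count of gained regions, 9, was 4 with the upper 50% by score and with equal numbers of top peaks, 21 with a call in at least 2 of 3 lists, and 9 to 17 with 1 list left out. The count of lost regions, 0, was 1 with a call in at least 2 of 3 lists and 0 to 1 with 1 list left out (1 without GFP replicate 1). SMARCB1 cover of HOXD was 0.573% with the upper 50% by score.

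With the replicate block, same-numbered lists taken as pairs, the cover differences gave an exact p = 0.25 in HOXA, HOXB and HOXC, the smallest 3 pairs allow. The block rule, which asks for the same direction in at least 2 of 3 pairs, gave 28 gained and 1 lost region. Depth limits weak peaks: a median BRD9 peak held 18 to 23 reads.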
